A study of Danio rerio with 72 samples.

Results

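The genes described here encode the oxidative phosphorylation machinery, and they were chosen by name: every entry whose symbol starts with MT- (the mitochondrial genome), or with NDUFA, NDUFB, NDUFC, NDUFS, NDUFV, SDHA to SDHD, UQCR, COX4 to COX8 or ATP5 (the nuclear genome), with the assembly factors NDUFAF and SDHAF left out. The rule found 109 of the 31902 entries of the count table. Of these, 96 are nuclear genes: 38 of complex I, 5 of complex II, 8 of complex III, 25 of complex IV and 20 of complex V, with the 4 genes of the NDUFA4 family placed in complex IV. The other 13 are mitochondrial: 7 of complex I, 1 of complex III, 3 of complex IV and 2 of complex V. NDUFS1 had a count of 0 in all 72 libraries, and the tests took in 95 nuclear members for larval heads, 94 for the hypothalamus and 93 for the telencephalon, beside all 13 mitochondrial members.

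Oxidative phosphorylation makes most of the ATP of neurons. Complexes I (NADH dehydrogenase) and II (succinate dehydrogenase) pass electrons to ubiquinone, complex III passes them to cytochrome c, and complex IV to oxygen, while complexes I, III and IV pump protons and complex V, the ATP synthase, uses the gradient. The enzymes are built from products of both genomes: the mitochondrial genome encodes core membrane subunits of all complexes except II, and the nuclear genome encodes every other subunit, among them catalytic ones and many small accessory ones. Cells that use much ATP, such as neurons and muscle fibres, are rich in these transcripts.

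The fish were SR4G zebrafish, a transgenic line in which glucocorticoid response elements drive a short-lived green fluorescent protein, d4EGFP, and all groups carry this transgene. From day 0 to day 6 after fertilization they were kept in water with 54 ug/L of fluoxetine, which blocks the reuptake of serotonin, or with 0.0053% ethanol, the vehicle. Within each exposure, some fish were stressed and some were not; the sources used here do not give the stressor or the time from stress to sampling. Libraries came from heads of 6-day-old larvae, in pools of 22, and from the hypothalamus and the telencephalon of 6-month-old adults, in pools of 5. Adults were exposed only as larvae. Each of the 3 tissues thus had 4 groups of 6 libraries: vehicle unstressed, vehicle stressed, fluoxetine unstressed and fluoxetine stressed.

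Libraries held between 10.2 M and 22.8 M counts (M, mega), with a median of 15.8 M in larval heads, 17.9 M in the hypothalamus and 18.5 M in the telencephalon. The glucocorticoid target FKBP5 had a median of 103 CPM (library-scaled counts) in vehicle unstressed and 519 CPM in vehicle stressed larval heads, 70.8 and 792 CPM in the hypothalamus, and 60.8 and 866 CPM in the telencephalon. The mean log2 CPM of 18 hypothalamus markers was 3.84 to 4.84 in hypothalamus and 0.44 to 2.13 in telencephalon libraries, and that of 18 telencephalon markers 1.71 to 2.61 and 4.11 to 4.72, so no adult library went against its region. Replicates 1 to 3 of the vehicle unstressed larval heads stood apart: their skeletal muscle markers had a mean log2 CPM of 7.21 to 7.30, against 4.45 to 5.26 in replicates 4 to 6, and their liver markers 6.42 to 6.80 against 2.53 to 4.96. The main larval results that use that group are therefore given with and without them. Vehicle stressed replicates 1 and 4 of the hypothalamus held 1.28% and 1.23% of their counts in nuclear members, against 1.047% to 1.15% in the other 4 libraries, and one count below is given without them. In the adult regions, replicates 1 to 3 carry lower library numbers than replicates 4 to 6 in every group. Values within a range are given for some results only: counts called of each genome, medians, the ratio, SDHA, NDUFV1 and UQCRC1. All other adult folds and counts, those of the other gene lists among them, pool both ranges. The labels do not say whether pools came from separate tanks or clutches, so the p-values measure only the spread between pools. Nor do they say whether the hypothalamus and telencephalon pools came from the same fish. The main fits treat all libraries as independent, so results shared by both regions may not be separate observations.

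The mitochondrial genome gave a larger share of the counts in the adult regions than in larval heads. Over 24 libraries a tissue, the 13 mitochondrial genes took 10.7% to 16.9% of all counts in the hypothalamus (median 14.03%), and in vehicle unstressed fish their lowest, median and highest shares were 15.8%, 16.7% and 16.9% there, 11.04%, 14.5% and 15.8% in the telencephalon, and 3.38%, 3.72% and 4.85% in larval heads. The 96 nuclear genes took 1.047% to 1.41% of the counts in the hypothalamus. In vehicle unstressed fish they took 0.995% to 1.28% in the telencephalon, and 0.541% to 1.52% in larval heads, where replicates 1 to 3 held 1.37% or more and replicates 4 to 6 held 0.821% or less. Fewer cells of a type and less RNA per cell cannot be told apart in such bulk samples. Poly(A) selection was used, so the mitochondrial values also depend on how well each mitochondrial transcript was captured. Gene lengths were not available, so levels are compared only within a gene or a fixed sum of genes.

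Set against each other as the log2 of summed mitochondrial over summed nuclear counts in the same library, a ratio that needs no library scaling, the genomes gave a median of 3.804 in vehicle unstressed hypothalamus, 3.63 in telencephalon and 1.90 in larval heads. The hypothalamus ranged from 3.52 to 3.89 and the telencephalon from 3.47 to 3.82 in this group, so these regions overlapped, and all larval libraries of the group, at 1.31 to 3.08, lay below both. By complex, the median log2 ratio over the 24 libraries of a tissue was 3.28 for complex I, 3.93 for III, 4.82 for IV and 2.06 for V in the hypothalamus. The same ratios were 3.15, 3.64, 4.64 and 1.78 in the telencephalon, and 2.06, 2.62, 4.13 and 0.40 in larval heads. Transcript lengths differ between complexes, so these values can be compared only within a complex, and each was lowest in larval heads.

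**Figure D1:**
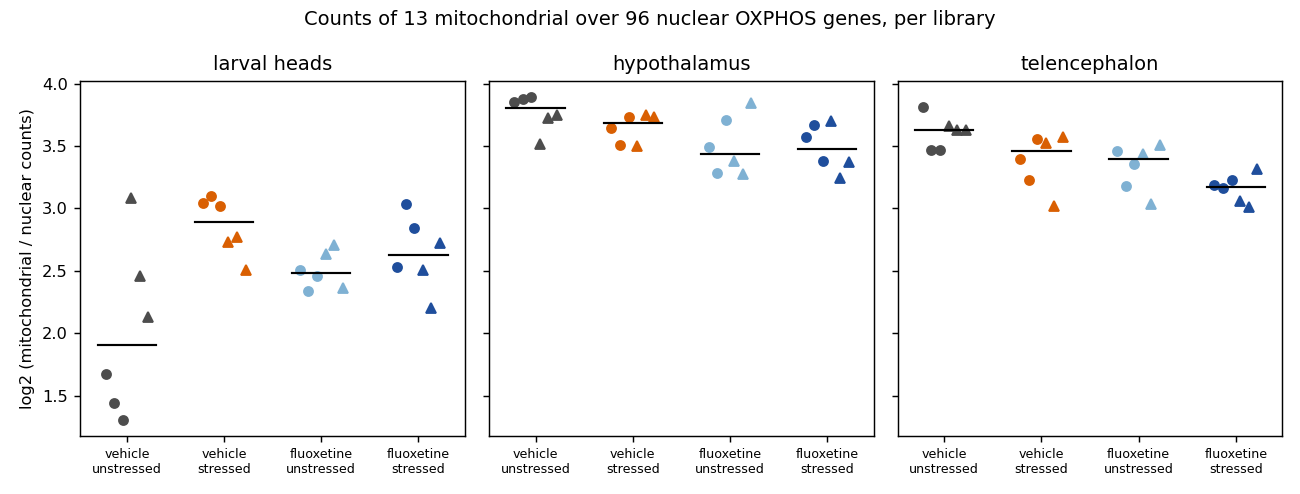
Log2 of summed counts of the 13 mitochondrial over the 96 nuclear members (vertical axis) in each library, by group and tissue. Circles are replicates 1 to 3, triangles replicates 4 to 6 and horizontal lines group medians; in the telencephalon all 6 fluoxetine stressed libraries (3.01 to 3.32) lie below the lowest vehicle unstressed library (3.47).

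In a fit of all 72 libraries with edgeR's quasi-likelihood test, vehicle unstressed larval heads differed from the mean of the adult regions in all 13 mitochondrial members, each lower, by 2.01 to 3.11 on the log2 scale (median -2.27). Of 95 nuclear members tested, 63 were lower and 10 higher (median log2 difference -0.44). In this comparison 79.6% of the 21297 genes tested were called (46.6% higher, 33% lower), and their median difference was 0.24. Without larval vehicle unstressed replicates 1 to 3, 85 nuclear members were lower and 4 higher (median -1.11), and all 13 mitochondrial members were lower (median -2.40), with 74.8% of genes called.

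Some subunits have isoforms or paralogs whose levels differed between larval heads and the adult regions. Larval libraries came from heads and adult ones from brain regions. Age and tissue therefore cannot be told apart in any comparison of larval heads with adult regions. CPM were scaled within each tissue, so CPM and overlaps across tissues, the adult regions included, are not on a common scale. The log2 differences between tissues come from a fit of all 72 libraries. One entry named SDHD (ENSDARG00000055712), a membrane anchor of complex II, had 1.11, 1.24 and 1.78 CPM (lowest, median and highest of 6) in vehicle unstressed larval heads and 23.6, 35.3 and 44.2 CPM in the hypothalamus. The groups did not overlap, and the larval head was lower by 4.98 ± 0.24 (log2 ± SE, adjusted p = 5.9e-29), or by 4.84 without replicates 1 to 3. The other entry of that name (ENSDARG00000030139) had medians of 53.4 and 103.7 CPM. The complex IV subunit cox8b, whose mammalian counterpart belongs to muscle, had 7.07, 11.99 and 24.8 CPM in vehicle unstressed larval heads, 135.1, 154.7 and 205.3 CPM in the hypothalamus and 89.2, 117.1 and 145.9 CPM in the telencephalon (larva minus adult -3.50 ± 0.18, adjusted p = 4.64e-27, and -4.21 without replicates 1 to 3). All larval libraries of the group lay below all adult ones. Its neighbour in the complex, ndufa4b, was lower in larvae by 2.95 on the log2 scale, or by 4.14 without replicates 1 to 3, with medians of 100.9 CPM against 636.4 and 713.6 CPM. Members that were higher in larval heads also without the doubted libraries were ndufa4l2b (3.05), cox7a1 (1.08), COX4I2 (0.82) and atp5mc3b (0.32), in log2 units; ndufa4l2b stayed under 2 CPM in every library.

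Between the adult regions few members differed. In vehicle unstressed fish the telencephalon was lower than the hypothalamus in 8 nuclear members and in MT-ND3 and MT-CO2, and higher in none, where 30.5% of all genes were called (16.9% higher, 13.6% lower). NDUFA4L2, a hypoxia-inducible partner of complex IV in mammalian cells, had 28.2, 32.9 and 53 CPM in the hypothalamus and 5.71, 7.54 and 9.90 CPM in the telencephalon. Every hypothalamus library lay above every telencephalon library, and the difference was -2.29 ± 0.17 (log2, adjusted p = 6.25e-19). The next in size was MT-ND3, a core membrane subunit of complex I, at -0.62 ± 0.16 (adjusted p = 0.00138), followed by COX4I2, an isoform of a regulatory complex IV subunit, at -0.58 ± 0.15 (adjusted p = 0.00135). The remaining nuclear members, COX7A2 (ENSDARG00000053217), cox8b, ndufa5, NDUFA1, atp5meb and ndufa11, were lower by 0.39 to 0.54.

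The question in larval heads was how stress and fluoxetine changed the 2 genomes' transcripts in the days of exposure. In vehicle larvae, 59 of 95 nuclear members were lower and 3 higher after stress, and 3 of 13 mitochondrial members were higher and 0 lower, where 21.2% of all 20260 genes were called (15.4% lower, 5.82% higher). The median log2 fold was -0.60 for the nuclear and 0.34 for the mitochondrial members, and -0.03 over all genes. By complex, 23 of 37 tested nuclear members of complex I, 6 of 8 of III, 16 of 25 of IV and 14 of 20 of V were lower, and 0 of 5 of complex II. Without vehicle unstressed replicates 1 to 3 no member of either genome was called by edgeR, while 542 genes, 2.64% of all, were. At an unadjusted p under 0.05 there were 2 nuclear and 7 mitochondrial members, beside 2623 of all 20524 genes. The nuclear median was then 0.05 and the mitochondrial median 0.43. With those replicates kept but only the 2 groups compared in the fit, edgeR also called 0 members. At an unadjusted p under 0.05 that fit had 65 nuclear and 4 mitochondrial members, beside 5081 genes in all. DESeq2 on all 4 groups called 70 and 5. The share of all genes called by DESeq2 is not given here.

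Single members are given with both sets of libraries. The ATP synthase rotor subunit atp5mc1 had 233.6 to 267.2 CPM in vehicle unstressed replicates 1 to 3 and 40.4 to 92.8 CPM in replicates 4 to 6. The 6 vehicle stressed libraries, at 48.1 to 87.2 CPM, lay within the latter range and below all of the former. Its fold was -1.31 ± 0.34 (log2, adjusted p = 0.0116), and 0.09 ± 0.20 (adjusted p = 0.913) without replicates 1 to 3. COX5B (ENSDARG00000068738), a subunit of complex IV at up to 4.46 CPM in the vehicle unstressed group, had -1.53 ± 0.52 (adjusted p = 0.0387) and 0.03 ± 0.52 without them. COX7A2 (ENSDARG00000110700), another small complex IV subunit, had -1.42 ± 0.39 (adjusted p = 0.0141) and 0.13 ± 0.23 without them. The other large falls were those of COX6A1 (ENSDARG00000054588) at -1.17 and atp5md at -1.10, which were at -0.17 and 0.04 without replicates 1 to 3.

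Members that rose with stress in vehicle larvae behaved in more than one way. SDHA, the flavoprotein that carries the active site of succinate dehydrogenase, had 114.3, 139.9 and 156.2 CPM in vehicle unstressed and 159.8, 164.8 and 180.4 CPM in vehicle stressed heads. These groups did not overlap, with or without replicates 1 to 3 (0.28 ± 0.09, adjusted p = 0.0286, and 0.24 ± 0.09, adjusted p = 0.235, without them). COX4I2 had 48.3 to 54.9 CPM in replicates 1 to 3, 103.8 to 115.7 CPM in replicates 4 to 6 and 106.5 to 151.1 CPM after stress, so that its fold of 0.64 ± 0.18 (adjusted p = 0.0177) fell to 0.20 ± 0.11 (adjusted p = 0.512). The third, ndufa4l2b, rose by 1.04 at under 2 CPM (1.03 without replicates 1 to 3). Among mitochondrial members MT-CO3, a core subunit of complex IV, had 5105, 6522 and 8747 CPM before and 6508, 9440 and 11230 CPM after stress; the groups overlapped (0.43, adjusted p = 0.0481, and 0.35 ± 0.17, adjusted p = 0.392, without replicates 1 to 3). MT-CO2 had 0.46 (adjusted p = 0.0401) and MT-ND6 had 0.72 (adjusted p = 0.0109), and without those replicates 0.31 and 0.59 (adjusted p = 0.494 and 0.177). All 13 mitochondrial genes had positive folds, of 0.25 to 0.72. MT-ND6 lies on the strand opposite to its neighbours, mt-nd4l overlaps MT-ND4 and mt-atp8 overlaps MT-ATP6, and since the strand setting of the counting is not given, the values of these genes are uncertain.

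**Figure D2:**
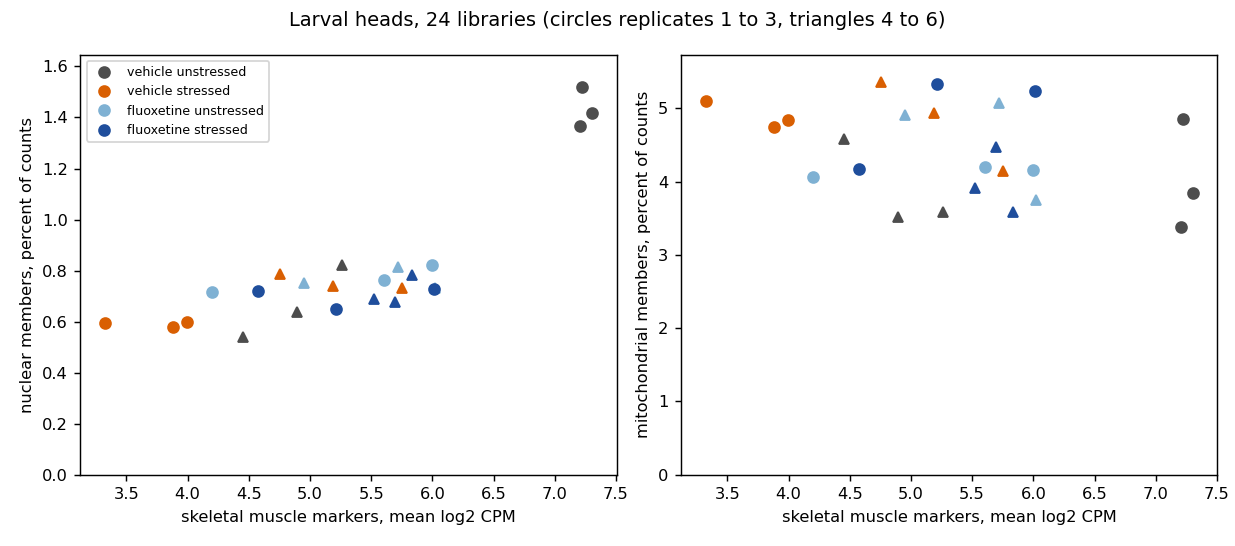
Share of all counts taken by the nuclear members (left) and the mitochondrial members (right), in percent, against the mean log2 CPM of 52 skeletal muscle markers in each of the 24 larval head libraries. Colours are groups, circles replicates 1 to 3 and triangles replicates 4 to 6; the vehicle unstressed replicates 1 to 3 sit alone at marker levels of 7.21 to 7.30 and nuclear shares of 1.37% to 1.52%.

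Muscle markers moved with the nuclear members. Of 52 skeletal muscle markers, 42 were lower and 0 higher with stress in vehicle larvae (median log2 fold -1.81); their mean log2 CPM ranged from 4.45 to 7.30 in vehicle unstressed and from 3.32 to 5.75 in vehicle stressed libraries. Of the heart muscle markers all 11 tested were lower, and of the liver markers 7 of 17. Without vehicle unstressed replicates 1 to 3 edgeR called none of these markers, with medians of -0.16, -0.16 and 0.50. At an unadjusted p under 0.05 there were 4, 0 and 2, beside 2623 of all 20524 genes. Vehicle stressed replicates 1 to 3, whose muscle markers were at 3.32 to 3.99, held 0.578% to 0.598% of counts in nuclear members, and replicates 4 to 6, at 4.76 to 5.75, held 0.730% to 0.787%. Their mitochondrial shares overlapped, at 4.75% to 5.09% and 4.14% to 5.36%. The part of muscle in these results was not tested.

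The log2 ratio of the genomes was 1.31, 1.90 and 3.08 in vehicle unstressed and 2.504, 2.89 and 3.10 in vehicle stressed heads. The groups overlapped, and their means differed by 0.85, or by 0.30 without replicates 1 to 3. The ratio was higher in stressed vehicle heads by 0.75 to 0.92 in each of complexes I, III, IV and V, or by 0.21 to 0.49 without replicates 1 to 3. In fluoxetine unstressed heads it was 2.34 to 2.71 and in fluoxetine stressed heads 2.198 to 3.04.

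Fluoxetine alone called few members in larval heads, and the leading direction depended on whether vehicle unstressed replicates 1 to 3 were used. In unstressed larvae 4 of 95 nuclear members and 0 of 13 mitochondrial ones were lower and none higher, where 10.8% of all genes were called (7.26% lower, 3.55% higher). At an unadjusted p under 0.05 (edgeR) the counts were 29 and 5, beside 6303 of all 20260 genes. DESeq2 called 11 nuclear members lower and 2 mitochondrial ones higher. The share of all genes called by DESeq2 is not given here, so these counts do not show a stronger change of the members. The comparison shares the vehicle unstressed group with that of stress. The complex IV subunit cox7a1, a muscle isoform in mammals, had 4.58, 5.38 and 10.01 CPM in vehicle unstressed and 1.495, 1.78 and 2.76 CPM in fluoxetine unstressed heads. No library of one group reached the other, and the fold was -1.74 ± 0.33 (adjusted p = 0.00535), or -1.35 ± 0.355 (adjusted p = 0.0359) without replicates 1 to 3. The falls of atp5mc1 (-1.05), NDUFAB1, the mitochondrial acyl carrier protein (-0.85), and UQCRC2, a core protein of complex III (-0.59), had adjusted p of 0.0489, 0.0474 and 0.0487. None of these 3 was called without the doubted libraries (folds of 0.35, 0.20 and 0.08), where NDUFA3, cox5aa and atp5meb were instead higher by 0.47, 0.49 and 0.44 and 3.69% of genes were called. At an unadjusted p under 0.05 (edgeR) that fit had 45 nuclear and 1 mitochondrial member, beside 4367 of all 20524 genes. Between stressed groups cox7a1 was again lower with fluoxetine, with a fold of -1.30 ± 0.34 (log2, adjusted p = 0.0277), at 0.706 to 3.62 CPM against 1.84 to 4.92 CPM; it was the only member called, where 5.19% of genes were (3.32% lower, 1.88% higher). Without the doubted libraries 13.5% of genes were called there, and with cox7a1 also COX5B (ENSDARG00000113254) and ndufa4l2b lower and SDHA and atp5meb higher.

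With fluoxetine, stress left the nuclear members of larval heads at a median log2 fold of -0.12 and the mitochondrial ones at 0.11. SDHA was the only member called, where 2.33% of all genes were (1.9% higher, 0.439% lower). It had 119.9, 128.5 and 149.4 CPM in unstressed and 192.2, 202.7 and 219.7 CPM in stressed fluoxetine larvae, with all stressed libraries above all unstressed ones (0.64 ± 0.09, adjusted p = 6.19e-05). The vehicle unstressed libraries do not enter these means, and with replicates 1 to 3 left out of the fit the adjusted p was 4.55e-06, where 6.44% of genes were called. This fold was more than that in vehicle larvae, but the interaction called no member by edgeR or DESeq2. For the interaction edgeR called 27 genes in all (0.133%). At an unadjusted p under 0.05 (edgeR) it had 19 nuclear and 1 mitochondrial member, beside 3078 of all 20260 genes.

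The adult regions were asked how stress acted in fish that had met vehicle or fluoxetine only as larvae. In vehicle fish of the hypothalamus 32 of 94 nuclear members fell and 3 rose with stress, and 3 of 13 mitochondrial members fell and 0 rose, where 36.8% of 18380 genes were called (20.3% higher, 16.5% lower). In the telencephalon 15 of 93 nuclear members fell and 3 rose, and 3 of 13 mitochondrial members fell, where 26.8% of 18367 genes were called (15% higher, 11.8% lower). The median log2 folds were -0.26 (nuclear) and -0.22 (mitochondrial) in the hypothalamus, and -0.23 and -0.33 in the telencephalon, beside -0.01 and -0.005 over all genes. In both regions the members that rose were SDHA, NDUFV1 and UQCRC1, all large core subunits.

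SDHA rose in both regions. In the hypothalamus it had 364.2, 375.3 and 399.4 CPM in vehicle unstressed and 508.9, 547.7 and 573.6 CPM in vehicle stressed fish (0.52 ± 0.06, adjusted p = 1.17e-06). In the telencephalon it had 394.3, 407.3 and 475.1 CPM and 501.1, 509.4 and 545.3 CPM (0.31 ± 0.06, adjusted p = 0.000374). The groups did not overlap in either region. Within the lower library numbers the folds were 0.52 and 0.37 (adjusted p = 0.000569 and 0.0053), and within the higher ones 0.51 and 0.25 (adjusted p = 0.0138 and 0.113).

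NDUFV1, the complex I subunit that binds NADH, had 125.4, 144.0 and 149.0 CPM in unstressed and 164.5, 184.2 and 202.5 CPM in stressed vehicle hypothalamus, and 128.2, 142.6 and 160.9 against 165.3, 175.9 and 179.0 CPM in the telencephalon. Stressed libraries lay above unstressed ones throughout (0.38 ± 0.06, adjusted p = 0.000117, and 0.27 ± 0.06, adjusted p = 0.00135). Within the higher library numbers its folds of 0.35 and 0.23 had adjusted p of 0.0562 and 0.143. UQCRC1, a core protein of complex III, had 119.6, 134.9 and 147.4 CPM in unstressed and 146.9, 160.8 and 170.5 CPM in stressed vehicle hypothalamus, where the ranges just met (0.23 ± 0.07, adjusted p = 0.00945). In the telencephalon it went from 132.4, 157.1 and 162.8 CPM to 168.3, 172.2 and 178.0 CPM, with no overlap (0.16 ± 0.05, adjusted p = 0.0296), and in neither region was it called within a single range of numbers (adjusted p from 0.0862 to 0.466). Summed over the 5 nuclear genes of complex II, the one complex with no mitochondrial subunit, the level was 764.6, 791.7 and 807.7 CPM in unstressed and 885.6, 974.1 and 1087 CPM in stressed vehicle hypothalamus. Of these 5 genes only SDHA was called, and their median log2 fold was 0.10. The sum therefore does not show a rise of the complex as a whole.

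**Figure D3:**
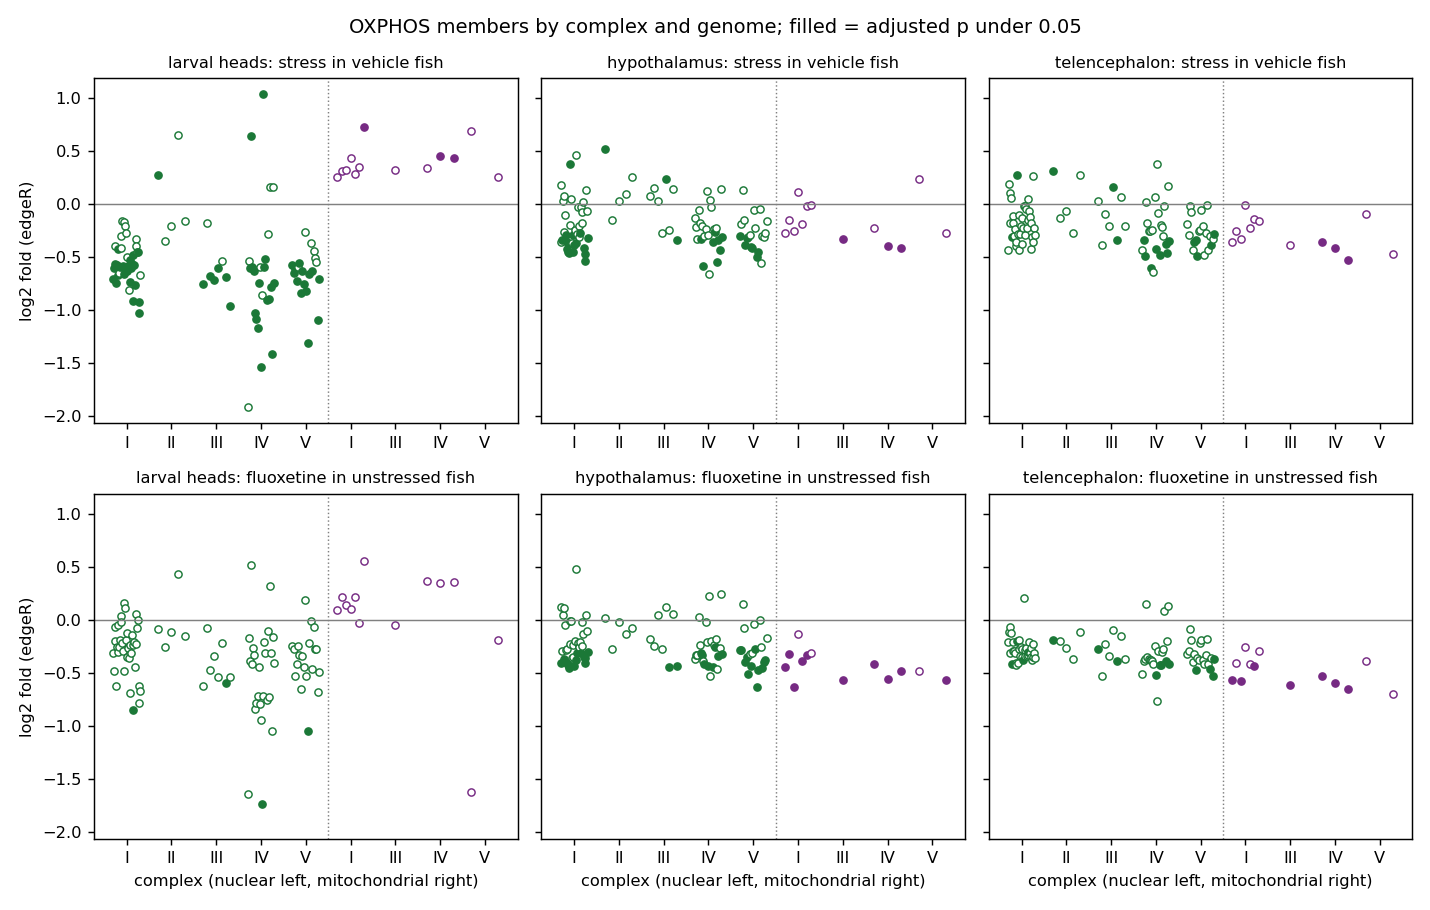
Log2 fold of each tested member (edgeR, vertical axis) by complex, nuclear members left of the dotted line and mitochondrial members right of it, for stress in vehicle fish (top) and fluoxetine in unstressed fish (bottom) in 3 tissues. Filled points have an adjusted p under 0.05; in the lower middle and lower right panels all 13 mitochondrial points lie below 0, and in the upper left panel all 13 lie above 0.

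Complexes I, IV and V hold most of the nuclear members, and most falls with stress in vehicle adults were among them. In the hypothalamus 15 of 37 tested nuclear members of complex I, 8 of 24 of complex IV and 8 of 20 of complex V fell, beside 16.5% of all genes. In the telencephalon 1 of 37, 8 of 23 and 5 of 20 fell, beside 11.8% of all genes, so complex I lay below that share there. Of complex III 1 of 8 fell in each region, UQCR10 (-0.34) in the hypothalamus and UQCRH (-0.34) in the telencephalon, and of complex II none. The accessory complex IV subunit cox6b1 had 117.9, 134.2 and 176.1 CPM in unstressed and 61.5, 82.5 and 154.7 CPM in stressed vehicle hypothalamus, where the highest stressed library is replicate 1. In the telencephalon it had 82.7, 111.7 and 155.9 CPM and 57.4, 70.1 and 108.8 CPM. The groups overlapped in both regions (-0.58 ± 0.17, adjusted p = 0.0116, and -0.60 ± 0.17, adjusted p = 0.0124). Other large falls in the hypothalamus were those of NDUFA4L2 (-0.54), the complex I subunits NDUFB1 (-0.54, adjusted p = 0.0019) and ndufv3 (-0.47, adjusted p = 0.00609), and atp5if1a (-0.50), whose product inhibits the ATP synthase when it runs backwards. In the telencephalon they were ATP5F1D and cox6a1 (ENSDARG00000022438), both at -0.49, cox8a at -0.48 and COX7A2 (ENSDARG00000110700) at -0.46.

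Among mitochondrial members the core subunits of complex IV led. MT-CO3 had 25790, 27420 and 29260 CPM in unstressed and 16090, 20400 and 26490 CPM in stressed vehicle hypothalamus, and 16460, 23900 and 28300 against 12310, 15870 and 20680 CPM in the telencephalon. Of 6 stressed hypothalamus libraries only replicate 1 reached the unstressed range, and in the telencephalon the ranges overlapped (-0.42, adjusted p = 0.0126, and -0.53, adjusted p = 0.0103). MT-CO2 fell in both regions (-0.39 and -0.42), MT-CYB, the cytochrome b of complex III, in the hypothalamus (-0.33, adjusted p = 0.046) and MT-CO1 in the telencephalon (-0.36, adjusted p = 0.0357).

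These counts depended on the libraries used. Without vehicle stressed replicates 1 and 4, 54 nuclear members fell and 3 rose in the hypothalamus. Those 2 libraries were left out for their high share of counts in these same members. A higher count of falls was thus built into the choice and is no support for a fall. Within the lower library numbers 0 nuclear members fell and 3 rose in the hypothalamus, where edgeR called 8.99% of genes, and 2 fell and 4 rose in the telencephalon (8.49%); within the higher ones 26 fell and 1 rose, and 5 fell and 0 rose (19.8% and 12.6%).

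**Figure D4:**
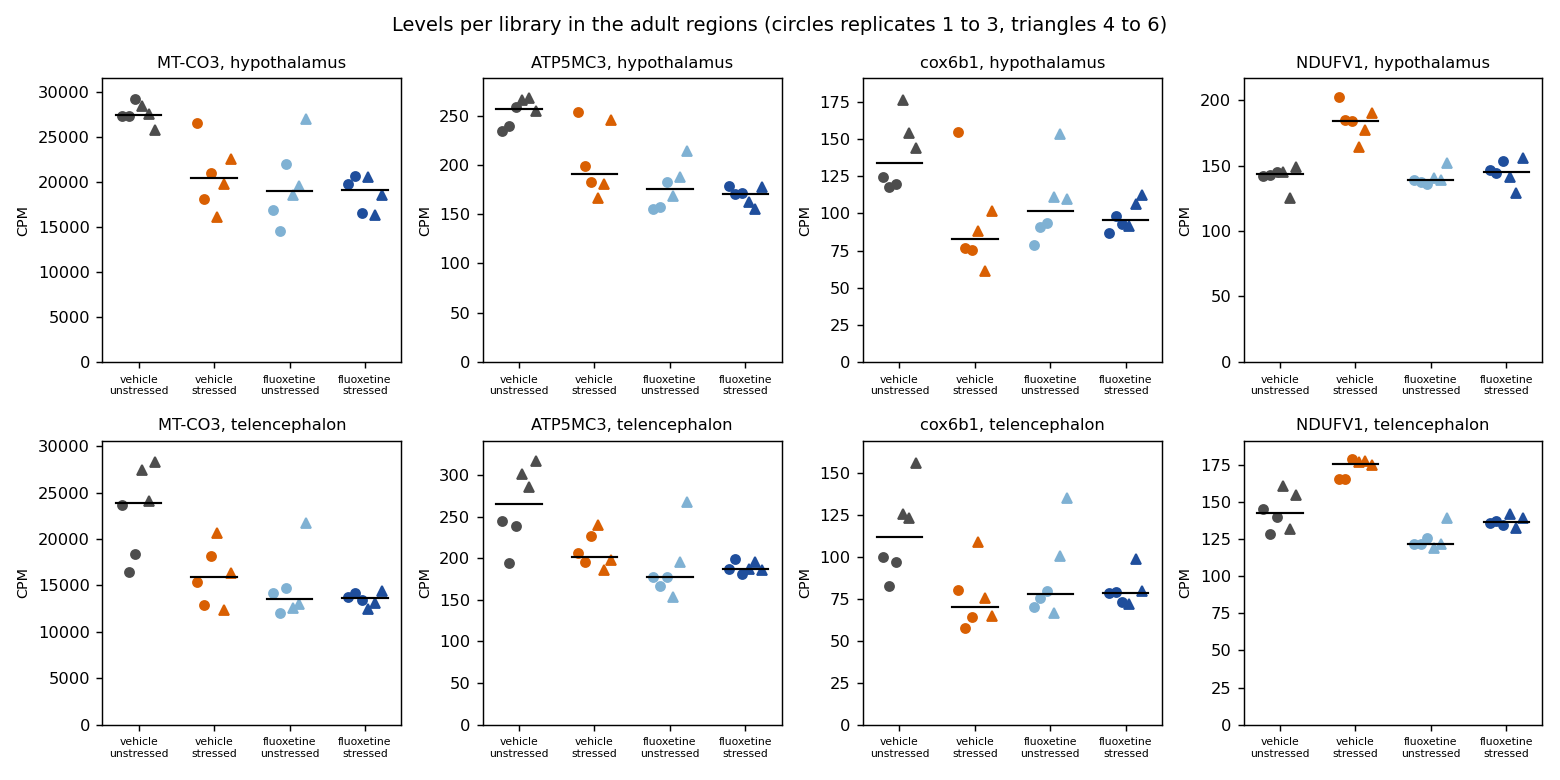
CPM in each adult library for MT-CO3, ATP5MC3, cox6b1 and NDUFV1 in the hypothalamus (top) and telencephalon (bottom), by group. Circles are replicates 1 to 3, triangles replicates 4 to 6 and lines medians; NDUFV1 is at 164.5 to 202.5 CPM in vehicle stressed hypothalamus, above all other groups, while MT-CO3 and ATP5MC3 have their highest medians in vehicle unstressed fish.

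Early fluoxetine was followed by lower levels from both genomes in unstressed adults. In the hypothalamus 36 of 94 nuclear and 10 of 13 mitochondrial members were lower in fluoxetine than in vehicle fish and 0 were higher, where 24.4% of genes were called (7.89% lower, 16.5% higher). In the telencephalon 15 of 93 nuclear and 7 of 13 mitochondrial members were lower and 0 higher, where 7.81% of genes were called (2.93% lower, 4.88% higher). The nuclear count in the telencephalon was 35 with DESeq2, 35 with the range of library numbers as a term, 37 with a replicate block and 23 with RLE size factors, and the mitochondrial one 8 to 11 over these fits. The shares of all genes called by these fits are not given here, so these counts do not show a stronger change of the members. The median log2 folds were -0.28 (nuclear) and -0.44 (mitochondrial) in the hypothalamus, and -0.32 and -0.53 in the telencephalon, beside -0.03 and 0.02 over all genes. The folds of all 13 mitochondrial members were negative in both regions. The vehicle unstressed libraries are the same as in the comparison of stress in vehicle fish, so the results of these comparisons are not independent.

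ATP5MC3, a rotor subunit of the ATP synthase, had 234.4, 256.8 and 268.5 CPM in vehicle and 154.8, 175.5 and 214.0 CPM in fluoxetine unstressed hypothalamus. The groups did not overlap there (-0.52 ± 0.10, adjusted p = 0.0021). In the telencephalon it had 194.4, 265.5 and 316.6 CPM against 153.7, 177.6 and 268.1 CPM, with overlap through fluoxetine replicates 5 and 6 (-0.47 ± 0.12, adjusted p = 0.0205). Of complex V 12 of 20 nuclear members were lower in the hypothalamus and 4 of 20 in the telencephalon, among them atp5if1a (-0.63), atp5meb (-0.47) and atp5mj (-0.46) in the hypothalamus and atp5md (-0.53) and atp5mj (-0.46) in the telencephalon. Of complex I 13 of 37 members were lower in the hypothalamus, with NDUFA1 at -0.46, and 4 of 37 in the telencephalon. Of complex IV 9 of 24 and 4 of 23 were lower, with ndufa4b at -0.43 and -0.52.

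MT-CYB had 15630, 16510 and 17080 CPM in vehicle and 8155, 10290 and 15480 CPM in fluoxetine unstressed hypothalamus. The groups did not overlap (-0.56, adjusted p = 0.00395). In the telencephalon it had 9464, 14190 and 16580 against 6689, 8578 and 13380 CPM, with overlap (-0.62, adjusted p = 0.0282). MT-ND3 had the largest mitochondrial fold in the hypothalamus (-0.64, adjusted p = 0.00345) and MT-CO3 the largest called one in the telencephalon (-0.65, adjusted p = 0.0173). MT-ND6, mt-atp8 and mt-nd4l were called in neither region.

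The call counts were not alike in the ranges of library numbers. In the hypothalamus 22 nuclear and 11 mitochondrial members were lower within the lower numbers, where 12.5% of genes were called. Within the higher numbers 0 were, where edgeR called 1 gene (0.00537%). An unadjusted p under 0.05 (edgeR) was reached by 60 nuclear and 12 mitochondrial members within the lower numbers, beside 6513 of 18290 genes. Within the higher numbers it was reached by 10 and 2, beside 3320 of 18625 genes, so the members showed no excess there. The nuclear medians were -0.35 and -0.22 and the mitochondrial ones -0.60 and -0.25. In the telencephalon no member was called in either range, where edgeR called 0 and 5 genes in all (0% and 0.0271%). At an unadjusted p under 0.05 (edgeR) there were 52 and 42 nuclear and 10 and 7 mitochondrial members. That p was reached by 2843 of 18427 and 3533 of 18421 genes. The nuclear medians were -0.27 and -0.38 and the mitochondrial ones -0.48 and -0.61.

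The ratio of the genomes was lower on average after fluoxetine. Its log2 was 3.52, 3.804 and 3.89 in vehicle and 3.27, 3.44 and 3.85 in fluoxetine unstressed hypothalamus, and 3.47, 3.63 and 3.82 against 3.04, 3.40 and 3.51 in the telencephalon. The groups overlapped, with mean differences of -0.27 and -0.28. Within the lower and the higher library numbers the difference was -0.38 (no overlap) and -0.16 (overlap) in the hypothalamus, and -0.25 and -0.31 in the telencephalon, with no overlap in either. In vehicle stressed fish it was 3.50, 3.69 and 3.75 in the hypothalamus and 3.02, 3.46 and 3.58 in the telencephalon. The adult group with the lowest median ratio was fluoxetine stressed telencephalon, at 3.01, 3.17 and 3.32, all below the lowest vehicle unstressed library. By complex the mean difference between fluoxetine and vehicle in unstressed fish was -0.18 for complex I, -0.43 for III, -0.16 for IV and -0.43 for V in the hypothalamus, and -0.17, -0.38, -0.19 and -0.45 in the telencephalon.

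In fluoxetine adults stress called few members. All of them rose, and their counts were near or below the share of all genes that rose. In the hypothalamus these were UQCRC1 (0.27 ± 0.07, adjusted p = 0.0176) and UQCRC2 (0.21 ± 0.06, adjusted p = 0.0323) of 94, where 6.49% of genes were called (3.6% higher, 2.89% lower). In the telencephalon 6 of 93 rose, where 13.6% of genes were called (6.35% higher, 7.26% lower): UQCRC1 (0.27), UQCRC2 (0.23), uqcrc2a (0.30), the Rieske iron-sulfur protein UQCRFS1 (0.25), ATP5F1A, the alpha subunit of the ATP synthase (0.31), and SDHA (0.20). Of these, 4 belong to complex III. In fluoxetine telencephalon UQCRC1 had 137.9, 144.5 and 151.4 CPM unstressed and 163.8, 174.1 and 184.2 CPM stressed, and UQCRC2 had 106.0, 109.9 and 122.3 CPM and 126.9, 131.6 and 133.2 CPM. Neither gene's groups overlapped (adjusted p = 0.0014 and 0.00506). No mitochondrial member was called by edgeR or DESeq2 in either region. At an unadjusted p under 0.05 (edgeR) there were 0, beside 4198 of 18380 genes in the hypothalamus and 5471 of 18367 in the telencephalon. Within the ranges of library numbers UQCRC1 had 0.27 and 0.28 in the telencephalon (adjusted p = 0.0722 and 0.0844) and 0.25 and 0.29 in the hypothalamus (0.179 and 0.284); 1.91% and 0.472% of genes were called in the hypothalamus, 3.3% and 3.66% in the telencephalon.

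Among stressed adults SDHA and NDUFV1, which had risen in vehicle fish, were lower with fluoxetine. In the hypothalamus 3 of 94 nuclear members were lower, SDHB, the iron-sulfur subunit of complex II (-0.41, adjusted p = 0.0293), SDHA (-0.34, adjusted p = 0.00169) and NDUFV1 (-0.34, adjusted p = 0.00212), where 2.07% of genes were called (1.26% lower, 0.805% higher). In the telencephalon 5 of 93 were lower, where 3.51% of genes were called (2.35% lower, 1.16% higher): cox7a1 (-1.65 ± 0.45, adjusted p = 0.04, at up to 5.03 CPM over the region), cox8b (-0.56), NDUFV1 (-0.34, adjusted p = 0.000911), SDHA (-0.31, adjusted p = 0.00329) and NDUFAB1 (-0.30). No mitochondrial member was called by edgeR or DESeq2. At an unadjusted p under 0.05 (edgeR) there were 3 and 8 of 13, beside 2939 of 18380 and 3830 of 18367 genes. Within the lower and the higher library numbers SDHA had -0.36 and -0.31 in the hypothalamus (adjusted p = 0.0218 and 0.669) and -0.30 in both ranges of the telencephalon (0.061 and 0.372); 0.984% and 0.172% of genes were called in the hypothalamus, 0.95% and 0.266% in the telencephalon. These comparisons share the vehicle stressed libraries with those of stress in vehicle fish. The interaction itself called 0 members in either region, where 0.511% and 0.8% of genes were called. At an unadjusted p under 0.05 (edgeR) it had 14 nuclear members in each region and 0 mitochondrial ones. That p was reached by 2816 of 18380 and 2364 of 18367 genes, so the nuclear counts were near the share of all genes. DESeq2 called 2 nuclear members in the hypothalamus and 0 in the telencephalon. Its medians were 0.20 for the nuclear members of either region and 0.19 and 0.21 for the mitochondrial ones.

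**Figure D5:**
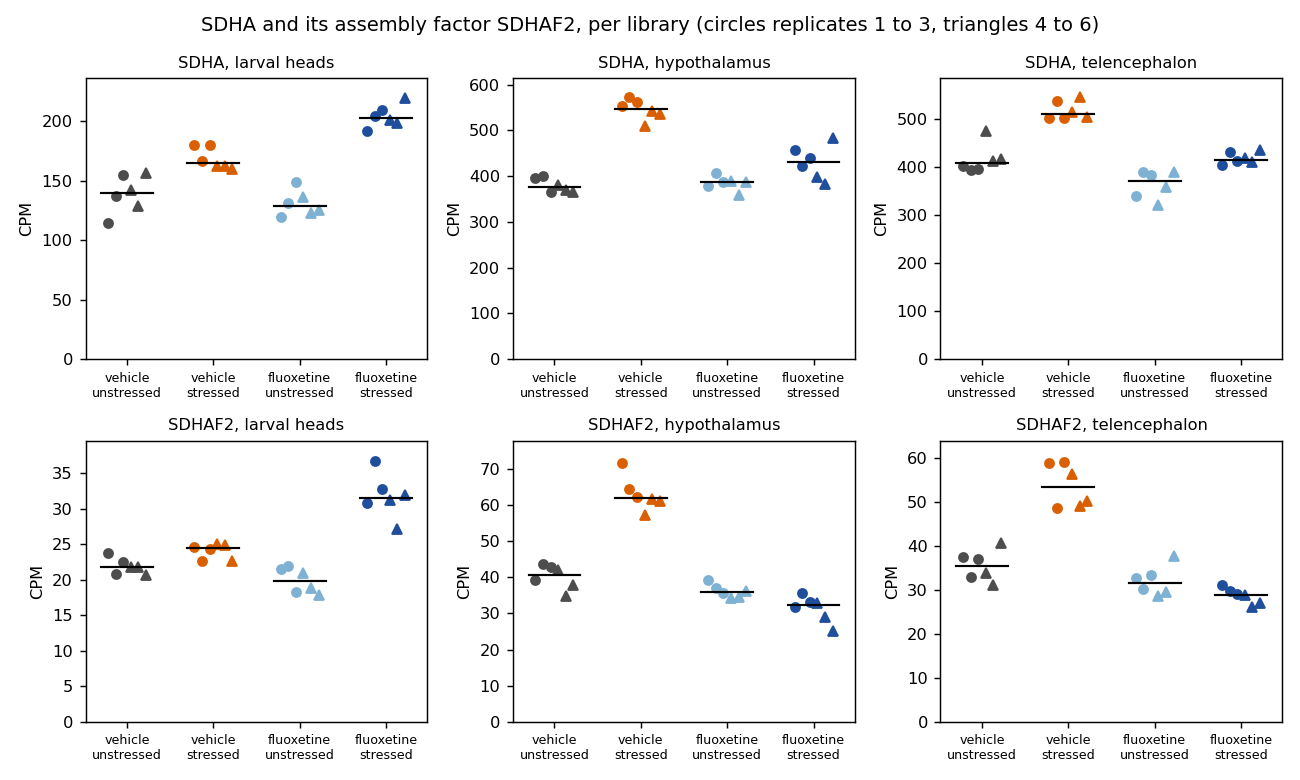
CPM of SDHA (top) and of SDHAF2, the factor that assists insertion of the flavin cofactor into SDHA (bottom), in each library of 3 tissues by group. Circles are replicates 1 to 3, triangles replicates 4 to 6 and lines medians; in the adult regions SDHAF2 is highest in vehicle stressed fish (57.3 to 71.7 CPM in the hypothalamus) and in larval heads in fluoxetine stressed fish (27.2 to 36.7 CPM).

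SDHA needs the assembly factor SDHAF2 for its flavin cofactor. In both adult regions SDHAF2 had larger folds than SDHA for stress in vehicle fish and for fluoxetine in stressed fish. In fluoxetine telencephalon, where SDHA rose with stress, SDHAF2 did not, with overlapping groups and medians of 31.46 CPM unstressed and 28.94 CPM stressed. In the hypothalamus SDHAF2 had 34.98, 40.7 and 43.7 CPM in vehicle unstressed, 57.3, 61.9 and 71.7 in vehicle stressed, 34.2, 36.03 and 39.2 in fluoxetine unstressed and 25.03, 32.4 and 35.6 CPM in fluoxetine stressed fish. Vehicle stressed libraries lay above all others. Stress raised it in vehicle fish by 0.65 ± 0.08 (log2, adjusted p = 2.63e-06), and among stressed fish it was lower with fluoxetine by 1.01 ± 0.08 (adjusted p = 6.78e-09). In the telencephalon it had 48.7, 53.3 and 59.1 CPM in vehicle stressed and 25.99, 28.9 and 31.1 CPM in fluoxetine stressed fish, again with no overlap, at 0.60 for stress in vehicle fish and -0.91 for fluoxetine in stressed fish. Unlike SDHA it passed the test of the interaction, at -0.86 (adjusted p = 7.16e-05) in the hypothalamus and -0.76 (adjusted p = 0.000394) in the telencephalon. In larval heads it rose with stress in fluoxetine fish, from 17.9, 19.9 and 21.9 CPM to 27.2, 31.6 and 36.7 CPM (0.68, adjusted p = 8.89e-06), and was higher by 0.40 with fluoxetine among stressed larvae (adjusted p = 0.00726). The difference between larval and adult interactions was not tested.

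The stress response of vehicle fish differed between larval heads and the adult regions in most mitochondrial members. The direction of the nuclear difference depended on larval vehicle unstressed replicates 1 to 3. Larva minus the mean of both regions was higher in 11 of 13 mitochondrial members and lower in none (median 0.63), and lower in 35 and higher in 2 of 95 nuclear members (median -0.34), where 33.4% of genes were called (12.6% higher, 20.8% lower) and the median was -0.13. MT-CO3 differed by 0.92 ± 0.18 (adjusted p = 6.05e-05), UQCRC1 by -0.77 ± 0.14 (adjusted p = 3.13e-05), NDUFV1 by -0.46 ± 0.10 (adjusted p = 0.000492) and COX4I2 by 0.66 ± 0.18 (adjusted p = 0.00347). The calls of these 3 nuclear members were lost without larval vehicle unstressed replicates 1 to 3, at -0.16, -0.18 and 0.23 (adjusted p = 0.276, 0.244 and 0.338). Without the same replicates the mitochondrial difference was called in 9 members (median 0.66; MT-CO3 0.85, adjusted p = 0.00369), while the nuclear one turned, with 8 higher and 0 lower (median 0.33), where 14.3% of genes were called. Telencephalon and hypothalamus gave no called difference among the members in their stress response (edgeR, 0.23% of genes called). There 2 nuclear and 0 mitochondrial members had an unadjusted p under 0.05, beside 1490 of all 21297 genes. Nor was a member called for a difference in the effect of fluoxetine in unstressed fish (0.0047% of genes called). There 2 and 0 members had that unadjusted p, beside 1572 of all genes. This fit treats the libraries of the 2 regions as independent.

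Of the isoforms and regulators followed in every tissue, ATP5IF1 and NDUFA4 family members moved in the hypothalamus. There atp5if1b had 173.5, 184.7 and 267.5 CPM in vehicle unstressed and 121.9, 145.2 and 205.5 CPM in vehicle stressed fish (-0.41, adjusted p = 0.0126), and NDUFA4 had 160.6, 171.3 and 184.3 against 117.9, 137.6 and 168.3 CPM (-0.27, adjusted p = 0.0246). Both pairs of groups overlapped. COX7A2L, which in mammals joins complexes III and IV into supercomplexes, had medians of 34.4 and 38.6 CPM in these groups and was not called in the adult regions, and COX4I2 had medians of 65.7 and 64.95 CPM. No entry was named COX6A2. The mitochondrial gene mt-atp8 varied widely within groups, from 9.86 to 210.4 CPM in larval heads, and was called in none of the comparisons within a tissue.

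Other genes of mitochondrial energy metabolism were read from lists. In the hypothalamus of vehicle fish stress lowered 33 and raised 0 of 75 mitochondrial ribosomal protein genes, lowered 16 and raised 4 of 47 assembly factors, and lowered 7 and raised 1 of 25 genes of mitochondrial DNA expression, beside 16.5% of all genes lower and 20.3% higher. In the telencephalon the ribosomal list had 12 lower and 0 higher and the assembly list 5 lower and 3 higher, beside 11.8% and 15% of all genes. Fluoxetine in unstressed fish lowered 19 of 75 ribosomal and 19 of 47 assembly genes in the hypothalamus, beside 7.89% of all genes. It lowered 5 and 1 of them in the telencephalon, where 9 of 26 glycolysis genes were lower and 1 higher, beside 2.93% and 4.88% of all genes. Stress in fluoxetine telencephalon raised 7 of 26 glycolysis and 5 of 21 citric acid cycle genes and lowered none, beside 6.35% higher and 7.26% lower over all genes. In vehicle larvae stress lowered 47 of 75 ribosomal and 10 of 21 citric acid cycle genes, beside 15.4% of all genes lower. Without replicates 1 to 3 of the unstressed group edgeR called 0 of either list. At an unadjusted p under 0.05 there were 8 and 0, beside 2623 of all 20524 genes.

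Some single genes of these lists are described next. UCP2, a carrier of the inner membrane named for uncoupling, had 8.18, 9.10 and 13.7 CPM in vehicle unstressed and 26.8, 31.4 and 39.9 CPM in vehicle stressed hypothalamus, with no overlap. Its rise was 3.30-fold there (adjusted p = 7.97e-09) and 2.89-fold in the telencephalon, and 2.87-fold and 4.02-fold in fluoxetine fish. The coactivator ppargc1b, which promotes transcription of nuclear genes of respiration, rose 1.83-fold and 2.02-fold with stress in vehicle fish of these regions and 1.96-fold in fluoxetine larvae. TWNK, the helicase of mitochondrial DNA replication, had 8.62, 9.14 and 11.3 CPM and 4.48, 6.20 and 7.05 CPM in vehicle hypothalamus before and after stress, with no overlap (0.65-fold, adjusted p = 0.000303), and fell to 0.706-fold in the telencephalon. LRPPRC, which stabilises mitochondrial messenger RNAs, rose 1.29-fold and 1.22-fold. The assembly factor uqcc3 of complex III was like SDHAF2 in part. Among stressed adults it was lower with fluoxetine by 1.13 in the hypothalamus (adjusted p = 1.79e-07) and 1.04 in the telencephalon. In fluoxetine larvae it rose with stress by 1.24 (adjusted p = 4.77e-06), all on the log2 scale. Unlike SDHAF2, its vehicle groups overlapped in the telencephalon, at 33.87 to 55.5 CPM unstressed and 38.12 to 74.38 CPM stressed. CYC1, the cytochrome c1 of complex III, rose with stress in vehicle fish by 0.32 (hypothalamus) and 0.36 (telencephalon), and cycsb, a cytochrome c, was lower with fluoxetine in unstressed fish by 0.57 and 0.48.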

How the data were processed

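The authors deposited whole-number read counts per gene, not normalized, for the 72 libraries in 1 table. Per the labels, libraries were made with a stranded kit that selects polyadenylated RNA. Per the submitters' processing notes, bcl2fastq 2.17.1.14, cutadapt, STAR 2.5 and DESeq2 were used; how reads were counted, whether by strand, and against which build and annotation, was not given in the sources used here. Symbols were joined to 29178 of 31901 Ensembl identifiers. Names shared by more than 1 identifier are printed with it, since reads may split between near-identical copies.

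Each tissue was fitted as 4 groups of 6 in edgeR 4.0.16 (R 4.3.3) with TMM scaling, filterByExpr (count 10, total 15) and robust quasi-likelihood F-tests, in 5 comparisons. P-values are adjusted by Benjamini and Hochberg over all genes of a comparison, with a threshold of 0.05; differences between tissues come from 1 fit of all 72 libraries. CPM use TMM-scaled library sizes within a tissue, and log2 CPM a prior count of 2. Ratios and list medians are descriptions without a test. Alternatives were DESeq2 1.42.0, RLE scaling, no filter, scaling without the members, a replicate block, a term for the range of library numbers, fits of 2 groups only and libraries left out. The code was tested on simulated data. The closest pair of libraries within a group differed by at least 5.13 times the variance that counting gives, so none was taken for a repeat. Members and lists were chosen with earlier results of these data known. In each comparison the text names up to 5 called members with the largest rise and fall, fixed isoforms and, of other lists, those with the lowest adjusted p; others named were chosen after their values were seen.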

Additional observations from a re-analysis of the deposited data

Results flagged for a closer look

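Of 348 groups of 6 libraries examined for the reported values, 24 had a library apart from the other 5 by Dixon's criterion, which chance gives in about 1 of 20 groups. Replicate 6 of fluoxetine unstressed telencephalon was high in 6 values: a mitochondrial share of 14.3%, MT-CO1 at 47970 CPM, MT-CO3 at 21730 CPM, NDUFV1 at 139.0 CPM, ATP5MC3 at 268.1 CPM and cox8b at 127.5 CPM. In the same region vehicle unstressed replicate 4 had SDHA at 475.1 CPM and replicate 1 UQCRC1 at 132.4 CPM. Fluoxetine stressed replicate 5 there had mt-atp8 at 64.8 CPM, cox6b1 at 98.9 CPM and PPARGC1A at 6.16 CPM, and fluoxetine unstressed replicate 4 had LRPPRC at 69.7 CPM.

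In the hypothalamus NDUFV1 was low at 125.4 CPM in vehicle unstressed replicate 5 and high at 151.9 CPM in fluoxetine unstressed replicate 6. UQCRC2 was at 121.9 CPM in fluoxetine stressed replicate 3, cox8b at 162.3 CPM in vehicle stressed replicate 1, ndufa4b at 477.2 CPM in vehicle unstressed replicate 4 and UCP2 at 13.7 CPM in vehicle unstressed replicate 6. In larval heads MT-ND6 stood at 31.6 CPM in vehicle stressed replicate 5 and at 23.9 CPM in fluoxetine unstressed replicate 4. In fluoxetine stressed replicate 5 cox7a1 was at 3.62 CPM and cox8b at 8.65 CPM, and in vehicle stressed heads ndufa4l2b was at 1.73 CPM in replicate 2 and NDUFA4L2 at 2.63 CPM in replicate 1.

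By edgeR's test of the difference, the stress response of some members in vehicle fish differed between larval heads and adult regions. These were 37 of 95 nuclear and 11 of 13 mitochondrial members, where 33.4% of 21297 genes were called. The nuclear count was near that share. The log2 differences were 0.92 for MT-CO3, -0.77 for UQCRC1, -0.46 for NDUFV1 and 0.66 for COX4I2. Without larval vehicle unstressed replicates 1 to 3 the nuclear difference turned, with 8 members higher and 0 lower (median 0.33 against -0.34). There 9 mitochondrial members were called, beside 14.3% of 21569 genes, and the nuclear count lay below that share. The effect of stress differed between fluoxetine and vehicle fish, by the interaction, for SDHAF2 (-0.86 in the hypothalamus, -0.76 in the telencephalon), for uqcc3 (-0.82 in the hypothalamus), for the glycolysis gene pgam1a (0.62 and 0.60), for ENO1, an enolase of glycolysis (-0.57 in the telencephalon), and for the coactivator gene pprc1 in larval heads (1.80).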

How the results depend on the processing

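Counts are of nuclear members unless said. Shares of all genes called are not set beside them here, so a changed count may come from a fit that calls more or fewer genes in all. Without larval vehicle unstressed replicates 1 to 3, stress in vehicle larvae called 0 nuclear and 0 mitochondrial members, fluoxetine in unstressed larvae 4 (3 of them higher, a turned direction) and in stressed larvae 5; the ratio differences, examined after seeing the data, became 0.30 for stress and -0.056 for fluoxetine. With only the groups compared fitted, these 3 larval comparisons called 0, 1 and 5 (3 higher), and mitochondrial stress 0. With a replicate block, larval stress called 8 and 1 mitochondrial, larval fluoxetine 1, fluoxetine in unstressed telencephalon 37 and 11 mitochondrial, in stressed telencephalon 1 mitochondrial, and stress in vehicle telencephalon 6 mitochondrial. The labels do not say whether same-numbered libraries belong together. In 0 of 18 pairs of groups did every same-numbered pair correlate above 0.1, a strict criterion that cannot exclude a pairing. Between vehicle and fluoxetine unstressed hypothalamus the median correlation was 0.434, with 4 libraries closest to their own number. Between vehicle unstressed and vehicle stressed larval heads these values were -0.545 and 0. DESeq2 called 5 mitochondrial (larval stress), 2 mitochondrial and 11 (larval fluoxetine, unstressed), 3 (stressed; 2 higher, a turned direction), 35 (fluoxetine, unstressed telencephalon) and 2 (hypothalamus interaction). RLE gave 23 for fluoxetine in unstressed telencephalon. Without the filter, larval stress gave 40, larval fluoxetine 1, stress in vehicle telencephalon 11, stress in fluoxetine hypothalamus 1 and in vehicle hypothalamus 1 mitochondrial. Scaling without the members gave 1 mitochondrial there, and mean log2 CPM a ratio difference of 0.011 for stress in vehicle hypothalamus, a turned direction. With the range of library numbers as a term, fluoxetine in unstressed telencephalon gave 35, stress in vehicle telencephalon 28 and the hypothalamus interaction 1. Within the lower numbers, stress in vehicle fish gave 3 (all higher, a turned direction) in the hypothalamus and 6 (4 higher, turned) in the telencephalon and 0 mitochondrial in both, stress in fluoxetine fish 0 and 1, fluoxetine in unstressed fish 22 and 0 with 0 mitochondrial in the telencephalon, and in stressed telencephalon 2. Within the higher numbers, stress in vehicle telencephalon gave 5; mitochondrial stress in vehicle fish, stress in fluoxetine fish, both genomes for fluoxetine in unstressed fish, and fluoxetine in stressed fish gave 0 in both regions. Without vehicle stressed replicates 1 and 4 of the hypothalamus, stress in vehicle fish gave 57 and the interaction 3. That choice was made on the members' own share of counts, so the higher count is no support. The cause of these changes was not tested. All other counts kept their direction and stayed within 1.5 times.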
